A study of Mus musculus with 12 samples.

Results

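The Slc25 genes encode the mitochondrial carrier family, and their RNA was compared between mouse livers with Acly and Acss2 deleted in hepatocytes (DKO) and control livers (WT). Members were the rows of the expression table whose symbol is Slc25a followed by a number. Of 41 such rows, 3 were left out by name (Slc25a1, Slc25a17 and Slc25a20), so that 38 of 12284 genes were described. Their substrate classes were assigned by hand from general knowledge. Another 7 carriers of the same naming series were not analysed here.

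Polyadenylated RNA was sequenced from 6 DKO and 6 WT libraries of whole liver. All mice were Acly f/f; Acss2 f/f, so the WT livers also carried both floxed genes. The DKO mice received AAV8-TBG-Cre and the WT mice AAV8-TBG-GFP at 6 to 8 weeks of age, TBG being a promoter active in hepatocytes, and cells other than hepatocytes were thus not targeted. Western diet (Teklad TD.88137) began 1 week after injection and lasted 6 weeks in both groups. Effects of Cre and of GFP cannot be told apart from the loss of the 2 genes, and whether the libraries are 1 per mouse is not stated, so p-values measure the spread between libraries, which may be technical. Values are log2 CPM, the logarithm of a gene's counts scaled by library total and by the authors' normalization between libraries. Their sums over named genes differed between libraries, from 905964 CPM (DKO 5) to 1087992 CPM (DKO 1). The read depth behind the values is unknown.

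Carriers of this family sit in the mitochondrial inner membrane, apart from a few in other membranes. Each is built from repeats of a pair of membrane-spanning helices and usually moves one metabolite across the membrane, often in exchange for another. In liver they link the citrate cycle, ATP synthesis, the urea cycle, gluconeogenesis and haem synthesis to the cytosol. ACLY uses citrate that has left mitochondria, and ACSS2 uses cytosolic acetate.

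The deleted genes were low in the DKO libraries. Acly spanned 4.42 to 6.60 log2 CPM (median 4.65) in DKO, against 6.56 to 9.35 (median 7.51) in WT. Acss2 spanned 3.59 to 5.74 log2 CPM (median 4.01) in DKO, against 6.12 to 7.45 (median 6.35) in WT, with no overlap. The sum of 17 measured hepatocyte markers lay between 79391 and 115035 CPM in DKO (median 90668) and between 94172 and 111102 CPM in WT (median 99520). Singly, 14 of these 17 were lower in DKO, 4 of them at an unadjusted limma p below 0.05, against 8.47% of all genes. The sum of 17 macrophage and monocyte markers lay between 593 and 949 CPM in DKO (median 914) and between 423 and 784 CPM in WT (median 488). All 17 macrophage markers were higher in DKO, 16 of them at an unadjusted limma p below 0.05, against 7.95% of all genes. Of these, 3 passed the test (Gpnmb, Ccr2 and Lyz2), against 0.619% of all genes called higher. Gpnmb was at the lowest value of the table in some WT libraries. That count of 3 was 10 without WT 1, 5 without DKO 6 and 1 without WT 2, WT 3 or DKO 4. In whole liver, fewer cells of a type and less RNA per cell cannot be told apart.

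None of the Slc25 carriers passed the test. In limma, with Benjamini-Hochberg adjustment over all genes, 0 of 38 members had an adjusted p below 0.05, against 214 of 12284 genes (1.74%; 0.619% higher and 1.12% lower in DKO). At an unadjusted p below 0.05 there were 8 of 38 members (21.1%), against 16.4% of all genes. Of these, 7 were lower in DKO (18.4% of members, against 8.47% of all genes) and 1 was higher (2.63%, against 7.95%). These unadjusted counts were not repeated under the alternative settings given below. Over those settings, the highest limma adjusted p of each of the 7 lay between 0.232 (Slc25a42) and 0.641 (Slc25a47). The exact permutation test gave an unadjusted p below 0.05 for 9 members (23.7%, against 16.2% of all genes), 8 of them lower in DKO (21.1%, against 8.41%). The 6 DKO and 6 WT values overlapped for every member, while they did not overlap for 2.17% of all genes. The count of 0 depended on single libraries: without WT 1 it was 2 (Slc25a10 and Slc25a42, both lower in DKO), and without DKO 6 it was 1 (Slc25a23, lower in DKO).

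The mean level was lower in DKO for 25 of 38 members (65.8%), against 49.2% of all genes. It was also lower for 15 of 18 mitochondrial housekeeping genes, 12 of 18 other mitochondrial solute transporters and 14 of 17 hepatocyte markers. The part of hepatocyte content in the carriers' lower means was not tested. Under quantile normalization, Slc25a5, Slc25a3, Slc25a39 and Slc25a46 turned from lower to higher, and Slc25a12 and Slc25a27 from higher to lower. The median log2 fold change (DKO minus WT) was -0.06 over the members, within a range of -0.52 to 0.49, and 0.004 over all genes. The precision differed widely between members. The 95% interval of the log2 fold change stayed within 0.5 in both directions, from 70.7% of WT to 1.41-fold, for 19 members. It stayed within 1, a doubling or halving, for 32 members. The other 6 intervals were wider and belonged to Slc25a21, Slc25a24, Slc25a29, Slc25a30, Slc25a34 and Slc25a35. Of the 12 members with a mean below 3 log2 CPM, 0 had an interval within 0.5, against 10 of the 15 members with a mean of at least 6.

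**Figure D1:**
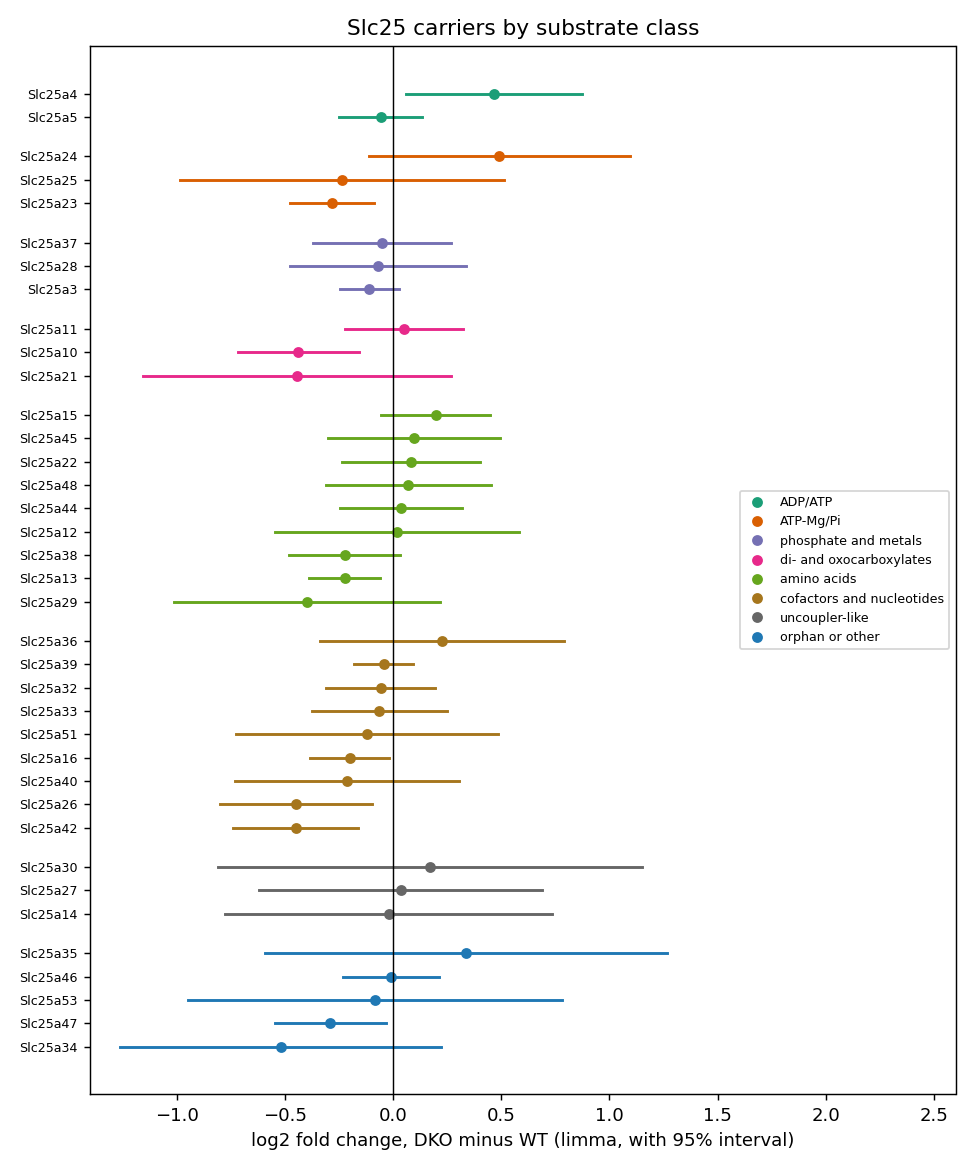
The log2 fold change (DKO minus WT) of each of 37 carriers is drawn as a point with its 95% limma interval as a line, coloured and grouped by substrate class. All point estimates lie between -0.52 and 0.49, and the widest intervals belong to carriers of low or variable level.

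The ADP/ATP exchangers and the phosphate carrier together supply ATP synthase with substrate and release its product. Slc25a5 (ANT2), the main ADP/ATP exchanger of liver, had 8.01, 8.20 and 8.32 log2 CPM in DKO (lowest, median and highest library), against 8.11, 8.19 and 8.58 in WT. The groups overlapped, with a log2 fold change of -0.06 (SE 0.09, limma adjusted p = 0.811) that became 0.10 under quantile normalization. The DKO level was 96.1% of WT, with a 95% interval of 84.1% to 109.8%. Slc25a3, which imports phosphate and also carries copper, had 8.04, 8.14 and 8.29 log2 CPM in DKO, against 8.19, 8.26 and 8.32 in WT. Its 4 lowest DKO libraries lay below all WT libraries, yet the mean was 92.7% of WT (95% interval 84.3% to 102%). The limma adjusted p was 0.416 and the unadjusted exact permutation p was 0.0368. The sign of its log2 fold change turned under quantile normalization (0.04). Slc25a4 (ANT1), the exchanger of heart and muscle, was the one member with an unadjusted p below 0.05 that was higher in DKO. It had 2.15, 2.77 and 2.83 log2 CPM in DKO, against 1.72, 2.14 and 2.52 in WT, and 4 of 6 DKO libraries exceeded all WT libraries. The log2 fold change was 0.47 (SE 0.19, adjusted p = 0.237; exact permutation p = 0.0368). Slc25a4 is made by many cell types, and the higher macrophage sums above stood beside this difference. The summed endothelial markers were 361 to 465 CPM in DKO and 349 to 393 CPM in WT. All 11 were higher in DKO, 6 of them at an unadjusted limma p below 0.05 (7.95% of all genes), and 0 were called. The summed stellate cell markers were 383 to 536 CPM in DKO and 296 to 402 CPM in WT. Of these 12, 11 were higher in DKO, 7 of them at an unadjusted limma p below 0.05, and 0 were called. The part of these cells in the difference was not tested.

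The calcium-regulated ATP-Mg/phosphate exchangers adjust the adenine nucleotide pool of the matrix. Slc25a23 (SCaMC-3) had 7.84, 7.94 and 8.30 log2 CPM in DKO, against 8.06, 8.30 and 8.44 in WT. In 5 of 6 DKO libraries it lay below all WT libraries, while DKO 6 was level with the WT median. The mean was 82.1% of WT (95% interval 71.8% to 93.9%) at a log2 fold change of -0.28 (SE 0.09, limma adjusted p = 0.122, exact permutation p = 0.0152). With single libraries left out, the limma adjusted p ran from 0.0435 (without DKO 6) to 0.213. Over the alternative settings given below it reached 0.488. Slc25a25 (SCaMC-2) varied over a wide range in both groups, with 6.47, 7.25 and 8.48 log2 CPM in DKO, against 6.44, 7.64 and 8.38 in WT (log2 fold change -0.24, SE 0.35). Slc25a24 (SCaMC-1) was low, with 0.40, 1.04 and 1.27 log2 CPM in DKO, against -0.53, 0.49 and 1.10 in WT (log2 fold change 0.49, SE 0.28, adjusted p = 0.411). The markers of other cells given for Slc25a4 moved beside it too, and their part was not tested.

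Among the carriers of di- and oxocarboxylates, Slc25a10 came closest of all members to the threshold. It encodes the dicarboxylate carrier, which exchanges malate or succinate for phosphate. It had 7.14, 7.49 and 7.66 log2 CPM in DKO, against 7.44, 7.94 and 8.21 in WT. Each of the 6 DKO values was under the WT mean, and WT 1 was the one WT library within the DKO range. The DKO mean was 73.8% of WT (95% interval 60.8% to 89.7%) at a log2 fold change of -0.44 (SE 0.13; limma adjusted p = 0.102; exact permutation p = 0.0173). With single libraries left out, the limma adjusted p ran from 0.0263 (without WT 1) to 0.207, and over the alternative settings given below it reached 0.251. Slc25a11, the oxoglutarate/malate carrier of the malate-aspartate shuttle, had 5.83, 6.29 and 6.48 log2 CPM in DKO, against 5.81, 6.18 and 6.35 in WT. Its log2 fold change was 0.05 (SE 0.13, adjusted p = 0.887), and the 95% interval ran from 85.8% to 125% of WT. Slc25a21, the oxoadipate carrier of lysine and tryptophan breakdown, had 1.39, 2.70 and 3.40 log2 CPM in DKO, against 2.53, 3.08 and 3.26 in WT, and 3 DKO libraries lay below all WT libraries (adjusted p = 0.550).

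The amino acid class held 9 carriers, among them the choline importer Slc25a48. They were spread around no difference, 6 higher and 3 lower in DKO, with a median log2 fold change of 0.04. Slc25a13 (citrin), the aspartate/glutamate carrier of liver and the aspartate exit of the urea cycle, had 7.63, 7.79 and 7.98 log2 CPM in DKO, against 7.84, 8.05 and 8.12 in WT. Each of the 6 DKO values was under the WT mean, and 4 lay below all WT libraries. The DKO level was 85.6% of WT (95% interval 76.4% to 95.9%), with a limma adjusted p of 0.150 (0.0803 to 0.604 over the alternative settings given below). The log2 fold change was -0.22 (SE 0.08, exact permutation p = 0.0108). Slc25a15, the ornithine/citrulline carrier of the same cycle, had 8.00, 8.17 and 8.52 log2 CPM in DKO, against 7.64, 8.06 and 8.27 in WT (log2 fold change 0.20, SE 0.12, adjusted p = 0.428). Its point estimate thus had the opposite sign to that of Slc25a13, although its interval of 96.4% to 136% of WT included no difference. Slc25a22, a glutamate carrier, was more spread in WT, with 7.67, 7.79 and 7.98 log2 CPM in DKO, against 7.38, 7.55 and 8.35 in WT (log2 fold change 0.08, SE 0.15). Slc25a12 (aralar), the aspartate/glutamate carrier of brain and muscle, had 3.23, 3.89 and 4.97 log2 CPM in DKO, against 3.60, 3.93 and 4.54 in WT. Its log2 fold change was 0.02 (SE 0.26) and turned sign with small changes of scaling.

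The remaining members of the amino acid class had adjusted p values of 0.374 or more in limma. Slc25a38, the glycine importer of haem synthesis, had 85.6% of the WT level in DKO (71.6% to 102%), and 4 of its DKO libraries lay below all WT libraries. Slc25a44, an importer of branched-chain amino acids, had 103% (84.4% to 125%). Slc25a45, a carrier of methylated basic amino acids, had 107% (81.2% to 141%) and Slc25a48, a choline importer, 105% (80.8% to 137%). Each of these intervals excludes a halving and a doubling, whereas that of Slc25a29, a carrier of basic amino acids at 75.9% of WT, ran from 49.6% to 116%.

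Of the 10 carriers of cofactors and nucleotides, 9 were lower in DKO, against 49.2% of all genes, and 3 of these had an unadjusted p below 0.05, against 8.47% of all genes. The median log2 fold change was -0.13. Slc25a42, the mitochondrial importer of coenzyme A, had 6.30, 6.77 and 6.98 log2 CPM in DKO, against 6.74, 7.21 and 7.45 in WT. Each of the 6 DKO values was under the WT mean, and 2 lay below all WT libraries. The DKO mean was 73.2% of WT (95% interval 59.9% to 89.5%) at a log2 fold change of -0.45 (SE 0.13, limma adjusted p = 0.103, exact permutation p = 0.0195). With single libraries left out, the limma adjusted p ran from 0.0415 (without WT 1) to 0.209. Over the alternative settings given below it reached 0.232. Slc25a16, also linked to coenzyme A, had 5.97, 6.15 and 6.33 log2 CPM in DKO, against 6.08, 6.38 and 6.45 in WT. WT 1 alone of the WT libraries lay inside the DKO range (87.0% of WT, 76.6% to 98.8%; adjusted p = 0.259). Slc25a26, the importer of the methyl donor S-adenosylmethionine, was low in all libraries, with 1.98, 2.12 and 2.35 log2 CPM in DKO, against 2.24, 2.59 and 3.10 in WT. In 4 of 6 DKO libraries it lay below all WT libraries (73.3% of WT, 57.5% to 93.5%; adjusted p = 0.177).

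Slc25a39, which imports glutathione into mitochondria, had the smallest standard deviation within groups of all members. It had 8.38, 8.42 and 8.54 log2 CPM in DKO, against 8.37, 8.49 and 8.62 in WT, so the groups shared one range. The DKO level was 97.1% of WT, with a 95% interval of 88.3% to 107% (limma adjusted p = 0.799); the sign turned under quantile normalization (0.12). Slc25a51, the NAD+ importer, had 6.49, 6.83 and 7.42 log2 CPM in DKO, against 5.75, 7.05 and 7.88 in WT (log2 fold change -0.12, SE 0.28). Its WT range enclosed its whole DKO range. Slc25a32, an importer of folate or FAD, had 96.1% of the WT level (80.7% to 115%), and Slc25a33, a pyrimidine nucleotide carrier, 95.6% (77.1% to 119%). Less closely measured were the low members Slc25a36, a second pyrimidine nucleotide carrier (117%, 79.1% to 173%), and Slc25a40, a paralog of Slc25a39 (86.4%, 60.3% to 124%).

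The iron importers had overlapping values. Slc25a28 (mitoferrin-2) had 2.95, 3.71 and 4.20 log2 CPM in DKO, against 3.51, 3.72 and 3.91 in WT, so that DKO libraries lay on both sides of the WT range. Slc25a37 (mitoferrin-1), the form of red cell precursors, had 5.50, 5.85 and 6.21 log2 CPM in DKO, against 5.54, 5.78 and 6.25 in WT. Their limma adjusted p values were 0.897 and 0.908. Beside this, the summed level of 5 measured red blood cell markers was 570 to 1396 CPM in DKO and 343 to 727 CPM in WT.

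Slc25a47, which is largely restricted to hepatocytes and whose substrate is debated, had 8.17, 8.51 and 8.71 log2 CPM in DKO, against 8.53, 8.70 and 9.19 in WT. Each of the 6 DKO values was under the WT mean, and 3 lay below all WT libraries. The DKO level was 81.8% of WT (95% interval 68.5% to 97.7%), with a limma adjusted p of 0.241 (0.0876 to 0.641 over the alternative settings given below). The log2 fold change was -0.29 (SE 0.12, exact permutation p = 0.0476). Beside it, 14 of 17 hepatocyte markers were lower in DKO (median log2 fold change -0.17) and 1 of them, Asgr1, fell (78.4% of WT, adjusted p = 0.0452), a call lost without any 1 library other than WT 1 or DKO 6; their part in this difference was not tested. Slc25a46, which sits in the outer membrane and acts in mitochondrial shape, had 99.2% of the WT level (85.1% to 116%). The orphans Slc25a34 (69.8%, 41.7% to 117%), Slc25a35 (126%, 66.4% to 241%) and Slc25a53 (94.3%, 51.8% to 172%) were low and loosely measured. The uncoupler-like members Slc25a14 (98.6%, 58.4% to 166%) and Slc25a27 (102%, 65.1% to 161%) were low too.

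**Figure D2:**
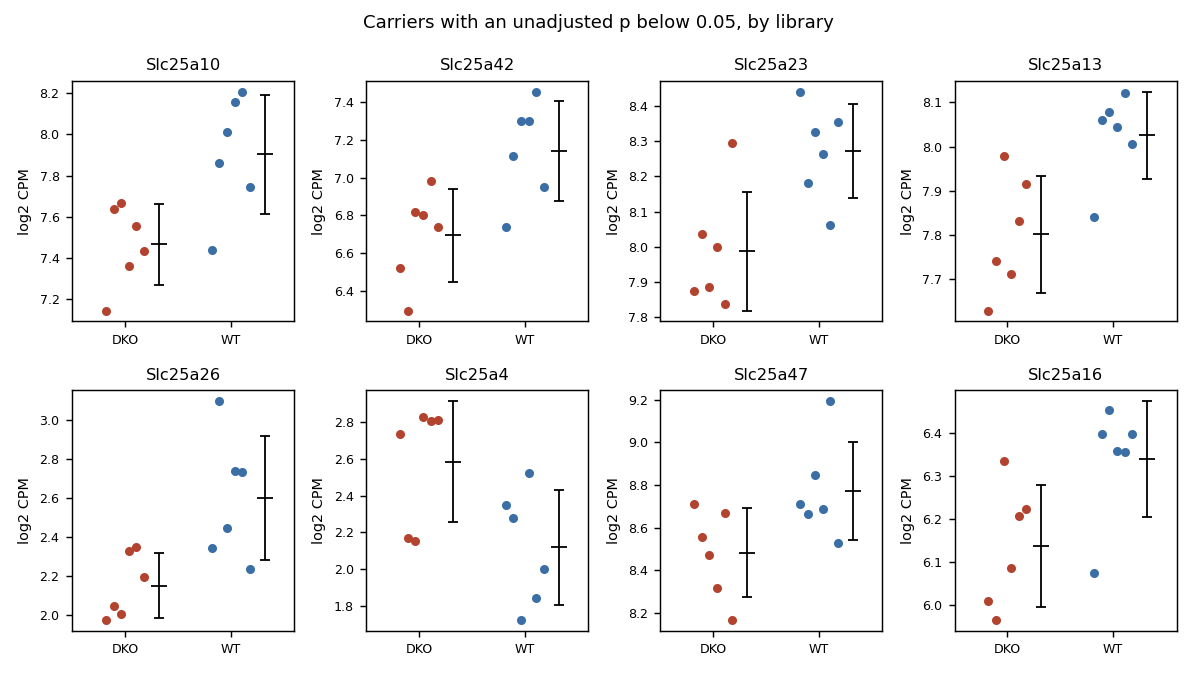
Log2 CPM in each library (DKO red, WT blue; replicates in number order from left to right) for the 8 carriers with an unadjusted limma p below 0.05, with the mean and SD of each group in black. The groups overlap in each panel, and Slc25a4 is the one carrier whose DKO mean is the higher; vertical axes differ between panels and do not start at 0.

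The start regions of the carriers closest to the threshold, and of the phosphate carrier, are shown for orientation; the expression data do not bear on which factors act there. The windows are RefSeq promoters of build GRCm38.p6, 250 bases before to 50 after a start, and 39 windows covered 29 of the 38 members. They were searched on both strands for the NRF1 motif of mitochondrial genes (GCGCANGCGC), for the DR1 motif bound by PPARα and HNF4α (AGGTCA, any base, AGGTCA, with 1 mismatch allowed) and for the GC box GGGCGG, which was added after the data were seen. Capitals mark the NRF1 motif in Slc25a3 (chr10:91123918-91124217, minus strand) and GC boxes in Slc25a10 (chr11:120491587-120491886, plus strand) and Slc25a42 (chr8:70212232-70212531, minus strand).
Slc25a3: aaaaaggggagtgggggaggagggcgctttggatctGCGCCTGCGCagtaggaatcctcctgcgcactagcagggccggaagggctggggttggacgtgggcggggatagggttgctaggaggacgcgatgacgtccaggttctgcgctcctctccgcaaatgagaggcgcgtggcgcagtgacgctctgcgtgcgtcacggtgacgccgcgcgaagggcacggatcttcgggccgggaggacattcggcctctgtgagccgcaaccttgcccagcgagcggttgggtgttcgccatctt
Slc25a10: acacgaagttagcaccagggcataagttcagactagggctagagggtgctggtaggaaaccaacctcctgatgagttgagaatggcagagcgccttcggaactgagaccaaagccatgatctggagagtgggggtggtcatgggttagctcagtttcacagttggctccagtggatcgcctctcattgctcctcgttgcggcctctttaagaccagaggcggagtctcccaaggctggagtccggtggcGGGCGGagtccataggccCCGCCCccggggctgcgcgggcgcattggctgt
Slc25a42: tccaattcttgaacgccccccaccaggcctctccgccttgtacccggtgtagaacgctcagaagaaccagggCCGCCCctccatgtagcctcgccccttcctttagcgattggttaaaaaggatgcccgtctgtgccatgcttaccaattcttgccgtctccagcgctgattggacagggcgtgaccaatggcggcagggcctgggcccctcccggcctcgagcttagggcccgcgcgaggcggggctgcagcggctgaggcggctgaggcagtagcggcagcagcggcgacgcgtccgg
The window of Slc25a3 was the 1 member window with the NRF1 motif, which lay on the strand opposite to the gene and did not overlap that window's GC box. The share was 2.56% of member windows, against 9.63% of windows of genes tested and 4.60% of all 32851 windows. No member window held the DR1 motif, present in 0.554% of all windows. GC boxes were in 84.6% of member windows, against 60.6% of windows of genes tested and 35.7% of all windows. The GC boxes of Slc25a10 and Slc25a42 are thus a feature found in 25 of the 29 members with a window.

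Levels of different carriers were compared per kilobase of the longest protein-coding transcript in GENCODE M21, which is approximate since the transcripts counted may be shorter. Slc25a5 had the highest level in both groups, at 234 ± 18.8 CPM per kb in DKO and 244 ± 32.4 in WT (SD, n = 6 each). In DKO, Slc25a39 came next and then Slc25a47, an order that was turned in WT. Slc25a39 stood at 206 ± 8.91 in DKO and 213 ± 13.4 in WT, Slc25a47 at 191 ± 26.9 in DKO and 234 ± 40.3 in WT, and Slc25a3 at 177 ± 12.6 in DKO and 191 ± 5.95 in WT. Neighbours in each order overlapped within 1 SD among these 4, except Slc25a39 and Slc25a3 in WT. Slc25a10 had 88.0 ± 11.5 in DKO, just under Slc25a15 (88.9 ± 13.1), and 120.2 ± 22.8 in WT. At the low end stood Slc25a24, at 0.568 ± 0.110 in DKO and 0.420 ± 0.145 in WT. Carriers of cofactors and nucleotides held 20.1% to 21.8% of the summed level of all members in DKO and 20.2% to 21.1% in WT. Carriers of di- and oxocarboxylates held 7.04% to 9.81% in DKO and 7.57% to 11.3% in WT.

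Within pairs of related carriers the same one was higher in every library, except for Slc25a25 and Slc25a23. Slc25a5 made up 98.4% to 99.0% of the ADP/ATP exchangers per kilobase in DKO and 98.8% to 99.4% in WT. The log2 ratio of Slc25a5 to Slc25a4 was 6.23 ± 0.28 in DKO and 6.75 ± 0.41 in WT (SD, n = 6 each), and 4 DKO libraries lay below all WT libraries. The liver form Slc25a13 made up 93.7% to 97.9% of the aspartate/glutamate carriers in DKO and 96.0% to 97.8% in WT. Slc25a39 made up 99.1% to 99.6% of the level it shares with Slc25a40 in DKO and 99.1% to 99.5% in WT. The balance of the ATP-Mg/phosphate exchangers was less fixed: Slc25a25 held 24.2% to 56.8% of it in DKO and 20.1% to 54.3% in WT. The log2 ratio of Slc25a24 to Slc25a23 was -7.08 ± 0.43 in DKO and -7.85 ± 0.49 in WT, and 5 DKO libraries exceeded all WT libraries. For all 8 pairs measured the groups overlapped.

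**Figure D3:**
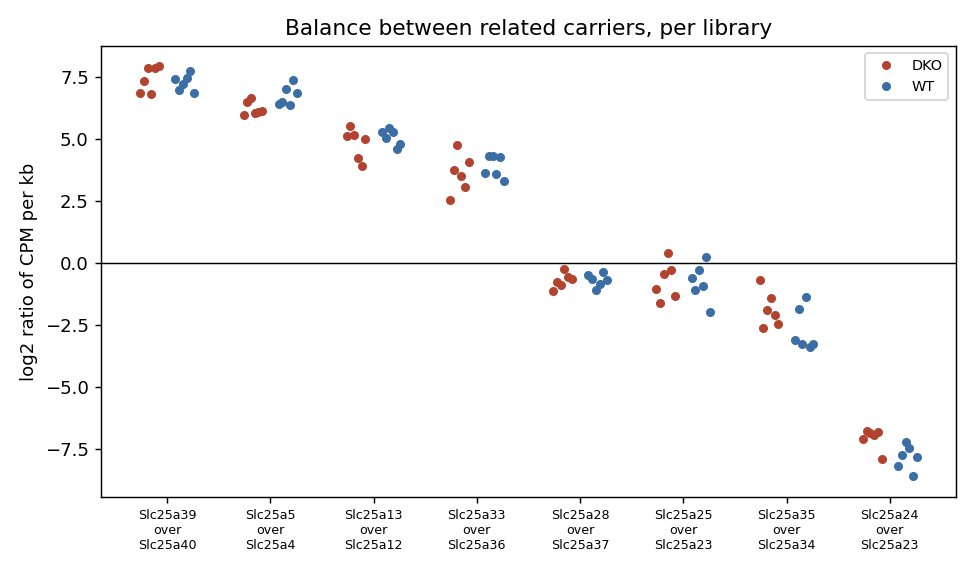
The log2 ratio of CPM per kb between the members of 8 pairs of related carriers is shown in each library (DKO red, left; WT blue, right). Values above 0 mean that the carrier named first is the higher; the groups overlap in each pair, and for Slc25a24 over Slc25a23 the DKO libraries lie above all WT libraries except for DKO 6.

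Several carriers varied far more between libraries of 1 group than between the groups. The standard deviation within groups (pooled over both) was 0.0773 for Slc25a39 and 0.0785 for Slc25a3, with a median of 0.294 over the members and of 0.282 over all genes. It was 0.929 for Slc25a30, a relative of UCP5 found in kidney, which spanned 4.33 to 6.16 log2 CPM in DKO (median 5.49) and 4.0 to 6.92 in WT (median 5.27). It was 0.707 for Slc25a25 and 0.570 for Slc25a51. In WT, Slc25a25 (8.38 log2 CPM) and Slc25a51 (7.88) were both highest in WT 5, and Slc25a25 (6.44) and Slc25a30 (4.0) were both lowest in WT 6. WT 4 held the highest value of Slc25a30 (6.92) and the lowest of Slc25a51 (5.75). In DKO, Slc25a30 was highest in DKO 6 (6.16), Slc25a25 in DKO 4 (8.48) and Slc25a51 in DKO 2 (7.42). Over the 38 members, WT 5 was the highest WT library for 16 and WT 1 the lowest for 13, and DKO 2 was the lowest DKO library for 14.

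**Figure D4:**
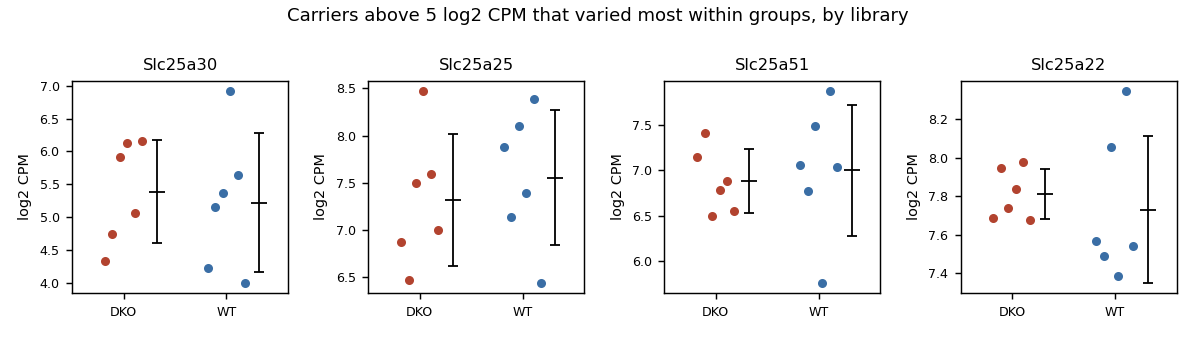
Log2 CPM in each library (DKO red, WT blue; replicates in number order from left to right) of the 4 carriers above 5 log2 CPM with the widest spread within groups, with group mean and SD in black. Slc25a30 spans 4.33 to 6.16 in DKO and 4.0 to 6.92 in WT; vertical axes differ between panels and do not start at 0.

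Related gene lists were examined in the same fit, in which 1.74% of all genes were called and 8.47% were lower in DKO at an unadjusted p below 0.05. Of 3 family members that bear other names, 0 were called by limma. At an unadjusted p below 0.05 there were 2, 1 higher and 1 lower in DKO, against 16.4% of all genes in either direction. One of these was Ucp2, the uncoupling protein of macrophages and other cells, which was higher in DKO, with 4.24, 4.78 and 5.07 log2 CPM, against 3.82, 4.01 and 4.72 in WT (log2 fold change 0.54, SE 0.18, adjusted p = 0.147); the macrophage markers moved beside it, and their part was not tested. Of 12 measured genes of the import route of carriers, 0 were called and 0 had an unadjusted p below 0.05 (median log2 fold change -0.05; Timm9, an import chaperone, had the smallest p, adjusted p = 0.559). Of 18 other mitochondrial solute transporters, 0 were called and 4 had an unadjusted p below 0.05, all lower in DKO (median log2 fold change -0.03). Abcb6, a porphyrin transporter, came closest, with 5.58, 6.13 and 6.29 log2 CPM in DKO, against 6.25, 6.55 and 6.59 in WT (73.8% of WT, adjusted p = 0.0685). The number of these transporters called was 1 without WT 1 and 1 without DKO 6. Of 18 mitochondrial housekeeping genes, 0 were called and 3 had an unadjusted p below 0.05, all lower in DKO (median log2 fold change -0.05). Phb, a prohibitin of the inner membrane, separated the groups, with 6.47 to 6.59 log2 CPM in DKO and 6.68 to 6.79 in WT, at an adjusted p of 0.105. Of 5 measured cholangiocyte markers, 4 were higher in DKO and 1 was lower (log2 fold change -0.24). The macrophage markers moved beside them, and their part was not tested. Of the 5, 2 were called, Spp1 and Cd24a, each higher in DKO, against 0.619% of all genes called higher. That count of 2 was 0 without WT 6 or DKO 1, and 1 without WT 3, WT 4, WT 5, DKO 2, DKO 3 or DKO 4. Of 3 measured lymphocyte markers, 0 were called. Cfd, the single adipose, muscle or pancreas marker measured, fell (5.73% of WT, adjusted p = 0.0364), a call lost without any 1 library other than WT 1 or DKO 2.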

How the data were processed

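Polyadenylated RNA of freeze-clamped mouse liver was sequenced in 6 DKO and 6 WT libraries, grouped by the genotype label. The deposited values are log2 CPM that the authors filtered and normalized between libraries, as the deposited name states. Their filter, pseudocount and scaling factors: not given in the sources used here. Tools listed in the submitters' processing notes are kallisto 0.46.2, edgeR and limma, and the build GRCm39 (mm39), with no role. Of 12285 rows, 1 without a name (up to 0.0148% of CPM) was left out. The depth is unknown, so no counting interval is given; precision comes from the spread between libraries.

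The fit was made in limma 3.58.1 under R 4.3.3 (mean trend, 2-sided, no covariate, no further filter or pseudocount), adjusted by Benjamini-Hochberg over 12284 genes and called at an adjusted p below 0.05; intervals are limma's 95% intervals. Single members were also compared by a 2-sided exact permutation test over the 924 divisions into 6 and 6 (smallest p 0.00216). The limma fit was tested on simulated data. Full values were planned for called members, for the member of smallest p and of highest level in each substrate class, and for 14 fixed members, 16 in all; the others were described after their values were seen. The single values of 1 member are not reported here. Members, classes and lists were chosen with earlier results of these data known. Lists were described by counts and medians, with no test. Alternatives were limma without trend, robust limma, quantile normalization, median subtraction per library, log2(CPM + 1), minimum means of 1 and 3 log2 CPM, a replicate block, array weights, and each library left out. Leaving out both libraries numbered 1 was added after seeing the data. Figures used matplotlib 3.10.9.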

Additional observations from a re-analysis of the deposited data

Results flagged for a closer look

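Single libraries stood far from the other 5 of their group for 5 of 78 groups of values examined (37 members and the 2 deleted genes, in DKO and WT), where chance gives about 1 in 20. WT 1 was concerned 3 times: Slc25a16 was at 6.08 log2 CPM there (other WT libraries 6.36 to 6.45), Slc25a48 at 3.49 (others 4.14 to 4.49) and Acss2 at 7.45 (others 6.12 to 6.50). Slc25a5 was at 8.58 log2 CPM in WT 5 (others 8.11 to 8.24) and Slc25a27 at 0.21 in WT 4 (others 1.18 to 1.72).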

How the results depend on the processing

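The number of members called was 0 in each setting that kept all libraries, apart from the replicate block, where it was 2 (Slc25a10 and Slc25a42, adjusted p 0.0332 and 0.0299), and it was 1 without both libraries numbered 1 (Slc25a10); leaving out single libraries gave 0 to 2. The numbers pair nothing in the labels: same-numbered libraries deviated together with r of -0.08 to 0.29, over 0.1 in 2 of 6 pairs, and 3 of 6 DKO libraries were closest to the WT library of their number. Genes called over the whole table numbered 138 without the mean trend, 109 with quantile normalization, 356 with array weights and 397 with the replicate block, against 214, and 92 to 373 with single libraries left out. Called counts of the lists moved as follows. Other mitochondrial solute transporters had 1 with array weights, the replicate block or both libraries numbered 1 left out, and 0 to 1 without single libraries. Hepatocyte markers had 0 without the trend, with quantile normalization or without both libraries numbered 1 (0 to 1 without single libraries). Macrophage markers had 1 with the filter at 1, 6 with array weights, and 5 with the block or without both libraries numbered 1 (1 to 10). Stellate markers had 1 with quantile normalization, array weights or the block. Cholangiocyte markers had 1, against 2, with either filter, quantile normalization or both libraries numbered 1 left out (0 to 2). Cfd, the single adipose gene measured, lost its call (0) without the trend (0 to 1 without single libraries), and endothelial markers had 0 to 2 without single libraries.

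Of 367 fold changes of members under settings other than single libraries left out, 352 kept their direction and side of the threshold, 3 passed it and 12 turned sign; of 456 without single libraries, 414, 3 and 39 did so. Quantile normalization turned Slc25a5 to 0.10, Slc25a3 to 0.040, Slc25a39 to 0.12, Slc25a46 to 0.013, Slc25a27 to -0.098 and Slc25a12 to -0.0036, and median subtraction turned Slc25a12 to -0.0032. Array weights turned Slc25a28 to 0.068, Slc25a14 to 0.062, Slc25a27 to -0.040 and Slc25a46 to 0.0083, and Slc25a28 was 0.044 without both libraries numbered 1. Without single libraries, sign turned within these ranges: Slc25a5 -0.085 to 0.011, Slc25a11 -0.015 to 0.12, Slc25a12 -0.18 to 0.17, Slc25a14 -0.23 to 0.19, Slc25a27 -0.17 to 0.23, Slc25a28 -0.18 to 0.071, Slc25a30 -0.074 to 0.51, Slc25a33 -0.16 to 0.012, Slc25a37 -0.13 to 0.026, Slc25a44 -0.066 to 0.11, Slc25a45 -0.031 to 0.21, Slc25a46 -0.070 to 0.040, Slc25a48 -0.065 to 0.15, Slc25a51 -0.37 to 0.055 and Slc25a53 -0.29 to 0.15. The cause of these changes was not tested. The unknown depth limits what can be said of members below 3 log2 CPM.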
